A study of Mus musculus with 8 samples.

Results

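The genes described here encode inhibitory and related receptors of myeloid cells and a ligand that feeds into them. They are the sialic acid-binding receptors Siglece, Siglec1 and Cd33, the paired receptors Pirb and Lilrb4a, the CD300 receptors Cd300a and Cd300lf, the CD200 receptor Cd200r1, and the pair of Sirpa and its ligand Cd47. They were chosen by symbol, and all 10 listed symbols matched a row among the 15336 genes of the deposited count table. The table comes from Ly6Chi monocytes, which leave the blood for inflamed tissue, and which were sorted from the liver in 8 male C57BL/6 mice aged 8 weeks. All 8 mice had been fasted for 12 h and given 300 mg/kg acetaminophen into the peritoneum, a dose that kills hepatocytes, and were killed 24 h later. The 4 deficient mice (LysMDCommd10, replicates 5, 6, 12 and 13) carried floxed Commd10 alleles and a Cre recombinase driven by Lyz2, a gene active in monocytes, macrophages and neutrophils. The 4 control mice (Commd10fl/fl littermates, replicates 2, 3, 10 and 11) carried the floxed alleles without the Cre, and no untreated mice were analysed here. Each library came from 1 animal. Only the deficient mice carry the Cre in Lyz2, so the loss of COMMD10, the presence of Cre and the altered Lyz2 locus cannot be told apart.

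Many inhibitory receptors of this kind carry tyrosine motifs in their cytoplasmic tails, known as ITIMs, but Siglec1 and Cd200r1 encode receptors without one. Once phosphorylated by Src family kinases, the motifs recruit the phosphatases SHP-1, SHP-2 and SHIP-1, which dampen signals from activating receptors. Many of these receptors arose beside closely related activating partners that signal through the adaptors DAP12 or FcRγ, and such sets are called paired receptors. Their ligands include sialic acids on cell surfaces, phospholipids of dying cells, MHC class I molecules, CD200 and CD47, the last of which restrains phagocytosis through SIRPα.

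Total counts ranged from 13327665 to 15759224 per animal. The names of the animals are spelled in 2 ways in the sample descriptions, which parts the mice into a higher-numbered set (deficient 12 and 13, control 10 and 11) and a lower-numbered set (deficient 5 and 6, control 2 and 3). What parts these label sets is not stated, and 60.5% of the variance lay on the first principal component. Genotypes were compared with the label set in the model (edgeR quasi-likelihood F-test, Benjamini-Hochberg adjustment over 12178 genes), with calls made at an adjusted p under 0.05. Commd10 stood at 8.74 to 17.0 CPM, counts scaled to the library size, in deficient animals and at 24.5 to 29.8 CPM in controls. Lyz2 stood at 315 to 7333 CPM in deficient animals and 8869 to 16341 CPM in controls. Deficient replicate 13 alone gave the lowest value of both genes. The other deficient animals had 15.4 to 17.0 CPM of Commd10 and 2847 to 7333 CPM of Lyz2. The summed CPM of 8 Ly6Chi monocyte markers lay at 8716 to 10969 in deficient animals and at 8098 to 9999 in controls. Of these 8, 3 were called lower (Plac8, Ms4a4c and Csf1r), where 7.35% of all tested genes were lower. Itgam was called higher, where 6.59% were, and the median log2 fold change was -0.24. Chil3, not called, stood at 3866 ± 1590 CPM in deficient animals and 2496 ± 480 CPM in controls (SD, n = 4 each). A level sum therefore does not show that each marker was level.

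Of the 9 members that could be tested, Cd200r1 and Cd300lf were higher in deficient monocytes and Siglec1 and Cd47 were lower. Cd200r1, the receptor for CD200, was about 2-fold higher (log2 fold change 0.98, SE 0.13). Siglec1, the macrophage sialoadhesin, was lower by more than 2-fold (log2 fold change -1.12, SE 0.18). Siglece, Cd33, Pirb, Sirpa and Cd300a did not pass the test. Across all genes tested, 13.9% were called, 6.59% higher and 7.35% lower. The median log2 fold change was -0.11 over the 9 members and 0 over all genes. Without the label set in the model edgeR called none of the 9 members and 0% of all genes, with an unadjusted p under 0.05 for 1 member and for 12.5% of genes. DESeq2 without the label set called 1 member, Siglec1. With the label set but without deficient replicate 12, edgeR called 2 members, Cd200r1 and Siglec1.

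**Figure D1:**
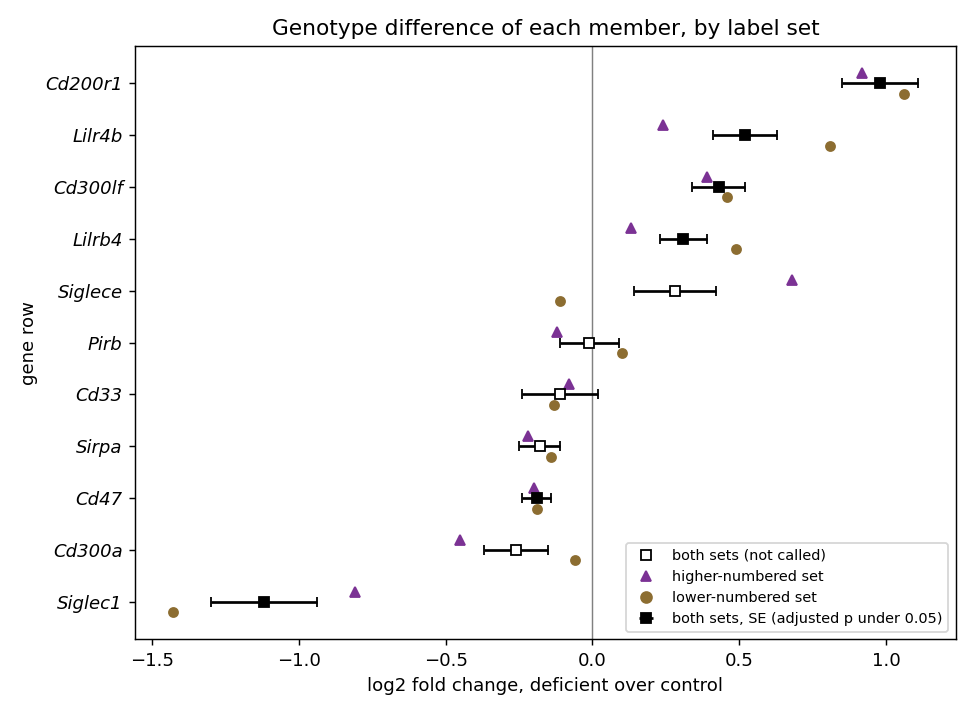
Log2 fold change of deficient over control on the horizontal axis for 11 gene rows. Squares give the fit over both label sets with the SE as bars, filled where the adjusted p is under 0.05. Triangles give the higher-numbered set and circles the lower-numbered set. Cd200r1 lies near 1 in both sets and Siglec1 is negative in both, while Siglece stands at 0.68 in the higher-numbered set and -0.11 in the lower-numbered set.

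Markers of other cell types moved beside these differences, and their part in them was not tested. Of all tested genes, 6.59% were called higher and 7.35% lower. The 10 neutrophil markers with a row, of 12 listed, summed to 682 to 929 CPM in deficient animals and 418 to 637 CPM in controls, with 4 of 7 tested markers called higher. Those called were S100a8, S100a9, Lcn2 and Mmp8, with log2 fold changes of 3.10, 2.72, 2.15 and 0.91. Csf3r, the most abundant of these markers by mean CPM, went the other way and was not called. It stood at 313 ± 45.2 CPM in deficient animals and 358 ± 40.4 CPM in controls (log2 fold change -0.20, edgeR adjusted p = 0.263). Cxcr2 and Ngp were not called either, with log2 fold changes of 0.95 and -0.13. Retnlg was too low to test, at 0.0719 to 1.32 CPM in deficient animals and 0 to 0.502 CPM in controls. Ltf and Elane were also too low to test, and Ly6g and Camp had no row. The 8 Ly6Clo monocyte markers summed to 2831 to 4551 CPM in deficient animals and 3760 to 6082 CPM in controls, with 3 of 8 called lower, among them Cx3cr1. The 7 Kupffer cell markers with a row, of 8 listed, summed to 18.7 to 22.7 CPM in deficient animals and 12.9 to 39.2 CPM in controls. Of 6 tested, 2 were called lower, Clec4f and Vsig4, both at low levels. Their means were 0.747 and 0.392 CPM in deficient animals and 1.83 and 1.23 CPM in controls. Hepatocyte markers, all 8 with a row, summed to 76.6 to 103 CPM in deficient animals and 98.1 to 334 CPM in controls, with 6 of 8 called lower and a median log2 fold change of -1.17. Of 5 tested conventional dendritic cell markers, 3 were called lower (Flt3, Clec9a and Cd209a), with log2 fold changes of -1.19, -1.25 and -0.89. These 3 were at low levels, with means of 3.50, 0.472 and 3.02 CPM in deficient animals and 7.77, 1.16 and 5.34 CPM in controls. The sum of all 6 lay at 259 to 315 CPM in deficient animals and 264 to 275 CPM in controls. Most of that sum was Itgax, which was not called, at 277 ± 26.8 CPM in deficient animals and 254 ± 9.45 CPM in controls (SD, n = 4 each). In such bulk samples, fewer cells of a type and less RNA per cell cannot be told apart.

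Per kilobase of annotated exon, Sirpa was the most abundant member, at 342 ± 27.5 CPM per kb in deficient animals and 386 ± 16.1 CPM per kb in controls (SD, n = 4 each). Cd33 had the lowest level per kb of the tested members, at 8.91 ± 1.39 CPM per kb in deficient animals and 9.60 ± 1.40 CPM per kb in controls. This rank rests on its annotated exon length of 7771 bases. In CPM, Cd33 had means of 69.2 in deficient animals and 74.6 in controls. Those of Siglece were 68.2 and 57.6, and those of Cd200r1 63.2 and 32.7. Over all 8 animals the order per kb ran from Sirpa, Cd300a, Pirb and Cd300lf to Siglece, Cd47, Siglec1, Cd200r1 and Cd33. The row named Lilrb4 lay between Sirpa and Cd300a. With the row named Lilr4b also in the order, between Sirpa and Lilrb4, the range of each gene over the 8 animals overlapped that of the next. Without Lilr4b, which is not a member, Sirpa stood apart. Its lowest animal had 316 CPM per kb, against a highest of 201 for Lilrb4 and 102 for Cd300a. Of the exon bases of Lilrb4, 35.32% also lie in the row named Lilrb4a, against 2.24% for Lilr4b. How shared reads were counted is not given in the sources used here, so the level of Lilrb4 may be too low. Sirpa was the steadiest, with 1.29-fold between its highest and lowest animal in CPM. Cd200r1 varied most among the tested members, by 8.44-fold.

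**Figure D2:**
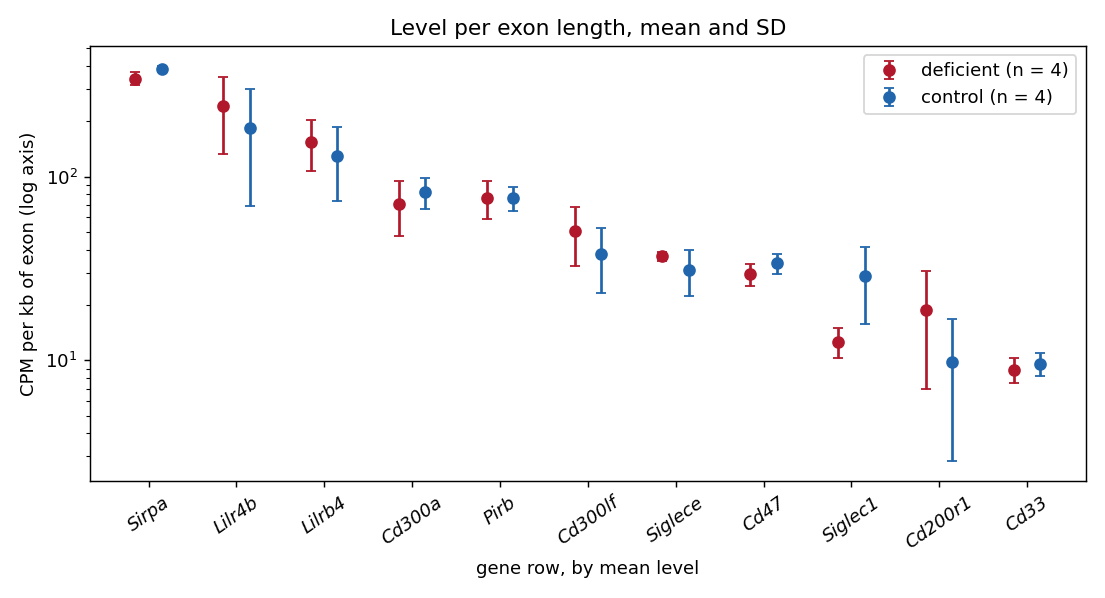
Level in CPM per kb of exon (log axis) for 11 gene rows, ordered by the mean over 8 animals. Points are means of the deficient animals (left of each pair) and the control animals (right), and bars are SD over 4 animals. Levels run from Sirpa at the top to Cd33 at the bottom, and Siglec1 and Cd200r1 show the widest gaps between the groups for their level.

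RefSeq promoter sequences (GRCm38.p6) were at hand for 6 of the 10 members and are shown because these genes share a short motif. PU.1, a factor that myeloid cells need to develop, binds sites built around GAGGAA. Those letters, on either strand, stood within the 250 bases before the start in 5 of the 6 members (Siglece, Cd33, Pirb, Cd300a and Cd300lf), against 23.3% of 32851 mouse promoters searched over the same length. The sixth, Cd47, a gene of nearly all cell types, held none and held ACGTG, the core of the hypoxia response element, which 16.6% of promoters hold. A C/EBP motif (TTGCNNAA, 9.56% of promoters) was present in Cd300a, and neither an interferon response element (2.98%) nor an AP-1 site (TGANTCA, 6.75%) was found in these windows. The last 125 bases before the RefSeq start follow in the direction of transcription, with GAGGAA or its complement TTCCTC in capitals, and in Cd47 the complement of ACGTG. They lie at chr7:43660162-43660286 (minus strand) for Siglece, chr7:3720383-3720507 (minus) for Pirb, chr11:114889916-114890040 (plus) for Cd300a, chr11:115133993-115134117 (minus) for Cd300lf and chr16:49855529-49855653 (plus) for Cd47.
Siglece: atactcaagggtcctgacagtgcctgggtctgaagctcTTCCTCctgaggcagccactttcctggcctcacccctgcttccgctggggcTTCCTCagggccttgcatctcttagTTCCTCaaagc
Pirb: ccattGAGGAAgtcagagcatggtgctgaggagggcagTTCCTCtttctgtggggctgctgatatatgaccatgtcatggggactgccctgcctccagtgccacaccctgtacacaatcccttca
Cd300a: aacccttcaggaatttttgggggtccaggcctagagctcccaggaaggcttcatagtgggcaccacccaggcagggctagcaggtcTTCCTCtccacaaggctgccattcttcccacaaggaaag
Cd300lf: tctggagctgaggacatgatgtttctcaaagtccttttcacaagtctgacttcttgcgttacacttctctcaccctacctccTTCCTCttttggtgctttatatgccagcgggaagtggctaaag
Cd47: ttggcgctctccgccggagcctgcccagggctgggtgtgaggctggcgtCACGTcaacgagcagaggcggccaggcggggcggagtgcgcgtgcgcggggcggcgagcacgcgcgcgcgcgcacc
The motif was present in Siglece, Cd33, Pirb and Cd300a, which were not called, and in Cd300lf, which was called higher. The searched window of Lilr4b, which is not a member, held no match. The share of promoters with the motif was taken over all promoters searched and not over those of genes active in monocytes. A match in these letters is a description of the sequence and not of binding.

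Siglec1 (ENSMUSG00000027322, GRCm38 chromosome 2, 131069220 to 131086765) encodes sialoadhesin, which binds sialylated cells and vesicles and lacks an ITIM. It stood at 87.2, 113, 72.0 and 88.9 CPM in deficient replicates 5, 6, 12 and 13, against 334, 203, 133 and 148 CPM in control replicates 2, 3, 10 and 11. Every deficient animal was below every control, and control replicate 2 stood well above the other controls. Means were 90.2 ± 16.9 CPM in deficient animals and 205 ± 91.4 CPM in controls (SD, n = 4 each; exact permutation test, two-sided, p = 0.0286, the lowest possible with 4 animals each). Its log2 fold change was -0.81 in the higher-numbered set and -1.43 in the lower-numbered set, and the edgeR adjusted p over both was 0.00736. It was the only tested member whose groups of 4 did not overlap, while 7.02% of all tested genes showed no overlap and 3.4% lay lower in this way. Siglec1 remained called whichever animal was left out, with log2 fold changes of -1.24 to -0.89.

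Siglece (ENSMUSG00000030474, chromosome 7, 43651070 to 43660161) encodes Siglec-E, the main ITIM-bearing Siglec of mouse neutrophils and monocytes. It had 64.6, 67.6, 73.5 and 67.3 CPM in deficient replicates 5, 6, 12 and 13, against 69.5, 73.3, 42.2 and 45.4 CPM in control replicates 2, 3, 10 and 11. The deficient animals were alike, whereas the controls of the higher-numbered set were lower than all others. In the higher-numbered set alone, Siglece was higher in deficient animals by a log2 fold change of 0.68 (edgeR adjusted p = 0.0121), and in the lower-numbered set it stood at -0.11 (edgeR adjusted p = 0.547). Over both sets the log2 fold change of 0.28 (SE 0.14) was not called (edgeR adjusted p = 0.212). The difference between the sets was 0.80 on the log2 scale, with an unadjusted p of 0.000101 in edgeR, the smallest interaction p among the members, and an adjusted p of 0.154.

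Cd33 (ENSMUSG00000004609, chromosome 7, 43524216 to 43544428) lies in the same Siglec cluster and encodes a receptor that in the mouse has a diverged cytoplasmic tail. It had 76.9, 54.5, 67.6 and 77.7 CPM in deficient replicates 5, 6, 12 and 13, against 59.5, 85.0, 78.7 and 75.2 CPM in control replicates 2, 3, 10 and 11. The groups overlapped throughout. A log2 fold change of -0.11 (SE 0.13) was within the error of the fit (edgeR adjusted p = 0.607), and it was 0.01 without control replicate 3. Among 5 other tested Siglec genes, none was called. Siglecf, known from eosinophils and carried in the table under the name Siglec5, stood at 0.627 ± 0.259 CPM in deficient animals and 1.22 ± 0.185 CPM in controls (log2 fold change -0.95, edgeR adjusted p = 0.0755). Siglech, a plasmacytoid dendritic cell marker, stood at 1.54 ± 0.369 CPM in deficient animals and 2.73 ± 1.06 CPM in controls (log2 fold change -0.83, edgeR adjusted p = 0.117).

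**Figure D3:**
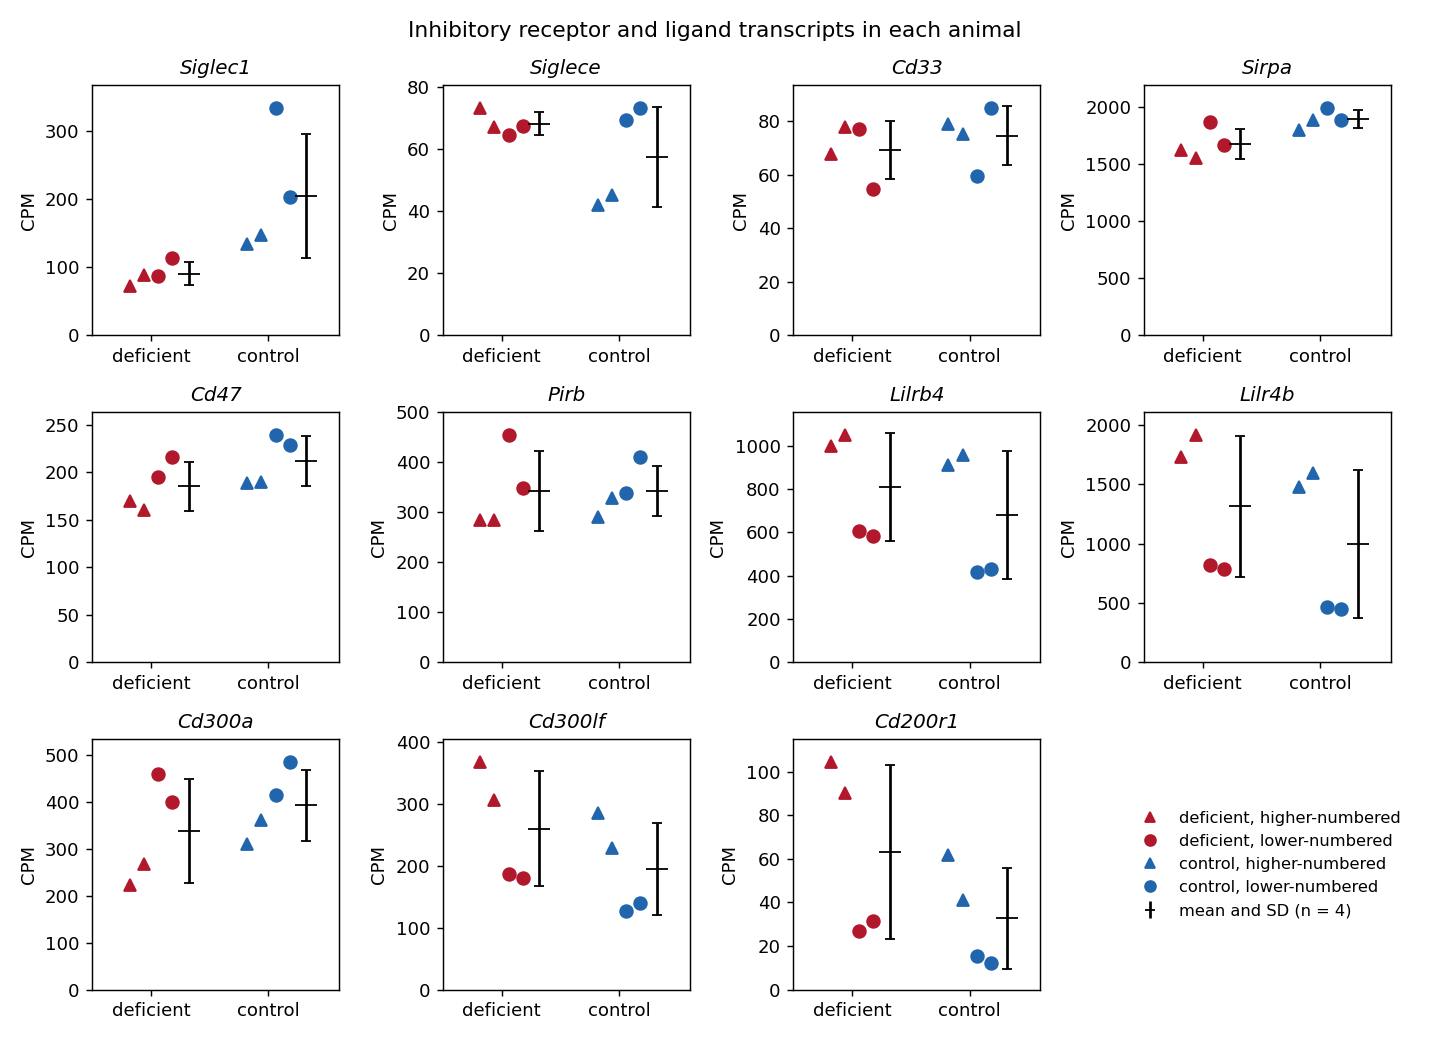
CPM in each animal for 11 gene rows, with deficient animals left of controls in each panel. Triangles are the higher-numbered set, circles the lower-numbered set, and the black bars give mean and SD over 4 animals. Siglec1 separates the groups of 4, whereas Cd200r1, Cd300lf, Lilrb4 and Lilr4b separate the genotypes within each set and differ more between the sets.

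Sirpa (ENSMUSG00000037902, chromosome 2, 129592835 to 129632228) encodes SIRPα, the phagocyte receptor that recruits SHP-1 when it meets CD47. It stood at 1867, 1669, 1623 and 1552 CPM in deficient replicates 5, 6, 12 and 13, against 1996, 1889.7, 1802 and 1892 CPM in control replicates 2, 3, 10 and 11. Each deficient animal was below both controls of its own set, but deficient replicate 5 was above control replicate 10. Sirpa had a log2 fold change of -0.18 (SE 0.07), with -0.22 in the higher-numbered set and -0.14 in the lower-numbered set. It was not called by edgeR (adjusted p = 0.109) and was called by DESeq2 with the label set (adjusted p = 0.0491).

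Cd47 (ENSMUSG00000055447, chromosome 16, 49800533 to 49915010) encodes the ligand that healthy cells show to SIRPα. It had 195, 217, 169.6 and 160.2 CPM in deficient replicates 5, 6, 12 and 13, against 239, 229, 189 and 189.6 CPM in control replicates 2, 3, 10 and 11. Both deficient animals were below both controls within each set, while across the sets the groups overlapped. The log2 fold change of -0.19 (SE 0.05), a fall to 185 ± 25.5 CPM in deficient animals against 212 ± 26.4 CPM in controls (SD, n = 4 each), was called with an edgeR adjusted p of 0.0448. That call was lost in 7 of 8 fits that left out an animal, where the log2 fold change lay between -0.23 and -0.16, and without the count filter (adjusted p = 0.0594), and it was not made in either set alone. The enzyme that makes CD47 able to bind SIRPα, Qpctl, and the SIRPα-cleaving proteases were not called. Adam17 had a log2 fold change of 0.19 (edgeR adjusted p = 0.165) and Adam10 of 0.02 (edgeR adjusted p = 0.928).

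The SIRPβ genes encode DAP12-coupled partners of SIRPα. Sirpb1a was lower, at 42.7 ± 13.1 CPM in deficient animals and 51.3 ± 11.0 CPM in controls (log2 fold change -0.29, SE 0.08, edgeR adjusted p = 0.0445). Sirpb1b and Sirpb1c had log2 fold changes of -0.23 and -0.15 and were not called.

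The symbol Lilrb4a, that of an ITIM receptor also known as gp49B, sits in the table on an identifier (ENSMUSG00000062593) that GENCODE M21 gives to a read-through transcript, Gm49339, on chromosome 10, 51480612 to 51496613. Counts in this row were 2, 1, 4 and 9 in deficient replicates 5, 6, 12 and 13, and 1, 3, 1 and 5 in control replicates 2, 3, 10 and 11. It was too low to test, and 95.35% of its 75-base windows also occur in other genes. The identifier that GENCODE M21 names Lilrb4a (ENSMUSG00000112148, chromosome 10, 51490956 to 51496611) stands in the table as Lilrb4. That row was added after the table had been seen and is not counted among the 9 tested members. Its neighbour Lilr4b (ENSMUSG00000112023, 51480632 to 51486703), known as gp49A, encodes a near-identical receptor without ITIMs.

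The coding sequences of the gp49 pair were identical at 96.0% of 907 aligned bases, with a longest shared run of 126 bases. The first 75 coding bases of each, from the GENCODE M21 transcripts, differ at 1 base, shown in capitals to illustrate how alike the genes are at the length of a read.
Lilrb4a: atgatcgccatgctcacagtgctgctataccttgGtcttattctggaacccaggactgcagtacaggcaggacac
Lilr4b: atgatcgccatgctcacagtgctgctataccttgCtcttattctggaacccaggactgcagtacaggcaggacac
Of the 75-base windows of the Lilrb4 row, 39.78% occur in another gene, and 16.33% do when the read-through is set aside. For Lilr4b the share is 15.04%. How the authors' counting treated shared reads is not given in the sources used here, so the split between the pair is uncertain.

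The Lilrb4 row had 608, 585, 1001 and 1050.0 CPM in deficient replicates 5, 6, 12 and 13, against 417, 429.6, 911 and 959 CPM in control replicates 2, 3, 10 and 11. Deficient animals were above the controls of their own set, most clearly in the lower-numbered set. The log2 fold change was 0.31 (SE 0.08, edgeR adjusted p = 0.034), with 0.13 in the higher-numbered set and 0.49 in the lower-numbered set. The call was lost in 6 of 8 fits that left out an animal and with upper-quartile scaling (adjusted p = 0.0522).

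Lilr4b was higher in deficient monocytes too, with 819.5, 791, 1729.9 and 1917 CPM in deficient replicates 5, 6, 12 and 13, against 471, 451, 1480.2 and 1598 CPM in control replicates 2, 3, 10 and 11. Its log2 fold change was 0.52 (SE 0.11, edgeR adjusted p = 0.0174), with 0.24 in the higher-numbered set and 0.81 in the lower-numbered set. The call was lost without control replicate 2 (adjusted p = 0.057) or control replicate 3 (adjusted p = 0.0508). The sum of the pair does not depend on how reads were split between them, but any shared reads left uncounted would be missing from it. This sum was 1427, 1376, 2731 and 2967 CPM in deficient replicates 5, 6, 12 and 13, against 888, 881, 2391 and 2557.5 CPM in control replicates 2, 3, 10 and 11. Within each set the sum was higher in both deficient animals than in both controls (exact permutation test within sets, two-sided, p = 0.0556, the smallest it can give; p = 0.514 with animals exchanged freely).

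Pirb (ENSMUSG00000058818, chromosome 7, 3711409 to 3720391) encodes PIR-B, an ITIM receptor for MHC class I. It stood at 455, 349, 285 and 284 CPM in deficient replicates 5, 6, 12 and 13, against 339, 410.4, 291 and 328 CPM in control replicates 2, 3, 10 and 11. The groups overlapped, and their means were 343 ± 80.4 CPM in deficient animals and 342 ± 50.0 CPM in controls (SD, n = 4 each). Its log2 fold change of -0.01 (SE 0.10) was not called (edgeR adjusted p = 0.961). Among its windows 26.03% occur in other genes, most of them in Gm14548, so its counts may be shared with that gene. The other tested PIR and LILR genes Pira2, Lilra5 and Lilra6, which encode activating partners, were not called and had log2 fold changes of -0.12, -0.44 and 0.17.

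Cd300lf (ENSMUSG00000047798, chromosome 11, 115116214 to 115133992) encodes CD300f, an ITIM receptor for ceramide and for phosphatidylserine on dying cells. It had 186, 180.2, 367 and 306 CPM in deficient replicates 5, 6, 12 and 13, against 127, 139.7, 284 and 228 CPM in control replicates 2, 3, 10 and 11. In each set both deficient animals were above both controls, although the controls of the higher-numbered set exceeded the deficient animals of the lower-numbered set. Cd300lf was called with a log2 fold change of 0.43 (SE 0.09, edgeR adjusted p = 0.0139), with 0.39 in the higher-numbered set and 0.46 in the lower-numbered set. Without deficient replicate 12 the adjusted p was 0.0504, and neither set alone gave a call (adjusted p = 0.154 in the higher-numbered set and 0.0835 in the lower-numbered set).

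Cd300a (ENSMUSG00000034652, chromosome 11, 114890041 to 114904654), an ITIM receptor for phosphatidylserine and phosphatidylethanolamine at the other end of the cluster, was not called. It had 460.3, 399, 223 and 268 CPM in deficient replicates 5, 6, 12 and 13, against 414, 485, 309.8 and 361 CPM in control replicates 2, 3, 10 and 11. Deficient animals of the higher-numbered set were the lowest, and in the lower-numbered set the genotypes overlapped. For Cd300a the log2 fold change was -0.26 (SE 0.11, edgeR adjusted p = 0.146), with -0.45 in the higher-numbered set and -0.06 in the lower-numbered set. Within 1.37% of its windows Cd300a shares sequence with another gene, and Cd300lf within 1.12%.

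Between Cd300a and Cd300lf lie further CD300 genes, most of which encode activating partners. Of 8 other tested CD300 genes, 2 were lower and none was higher, where 7.35% of all tested genes were lower. Cd300c2 stood at 215 ± 32.3 CPM in deficient animals and 273 ± 9.92 CPM in controls (SD, n = 4 each; log2 fold change -0.36, SE 0.08, edgeR adjusted p = 0.0174). Cd300lg, which lies apart from the cluster and is known from endothelium, stood at 18.5 ± 9.01 CPM in deficient animals and 25.4 ± 10.09 CPM in controls (log2 fold change -0.50, SE 0.10, edgeR adjusted p = 0.0154). The summed liver endothelial markers, all 6 with a row, lay at 12.2 to 40.0 CPM in deficient animals and 16.3 to 103 CPM in controls, and their part in the Cd300lg value was not tested.

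Cd200r1 (ENSMUSG00000022667, chromosome 16, 44765736 to 44794978) encodes the receptor for CD200, which restrains myeloid cells through the DOK adaptors rather than through an ITIM. It had 26.8, 31.4, 104 and 90.3 CPM in deficient replicates 5, 6, 12 and 13, against 15.6, 12.4, 61.7 and 41.1 CPM in control replicates 2, 3, 10 and 11. Deficient animals were well above the controls of their own set, yet the sets lay so far apart that the groups of 4 overlapped. The log2 fold change was 0.98 (SE 0.13, edgeR adjusted p = 0.00383), with 0.92 in the higher-numbered set and 1.06 in the lower-numbered set. Without the label set in the model the log2 fold change was 0.95, with an edgeR adjusted p of 0.513. Cd200r1 remained called whichever animal was left out, with log2 fold changes of 0.87 to 1.14.

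Cd200r4, a neighbour in the same gene cluster and on the same strand, encodes a DAP12-coupled relative. It was higher by a log2 fold change of 1.02 (SE 0.13, edgeR adjusted p = 0.00331), at 12.0 ± 4.39 CPM in deficient animals and 5.99 ± 2.20 CPM in controls (SD, n = 4 each). The shared sequence between Cd200r1 and other genes covers 0.40% of its windows. Cd200, the ligand, stood at 0.859 ± 0.449 CPM in deficient monocytes and 0.572 ± 0.273 CPM in controls and was not called. The adaptors Dok1 and Dok2, which carry the CD200R1 signal, had log2 fold changes of -0.15 and 0.20 and were not called.

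More members were called between the label sets than between the genotypes. With the genotype in the model, edgeR called 6 of the 9 tested members between the higher-numbered and the lower-numbered set, 2 higher and 4 lower, where 36.9% of all genes were called, 18.6% higher and 18.3% lower. Cd200r1 and Cd300lf were higher in the higher-numbered set, by log2 fold changes of 1.80 (adjusted p = 7.58e-05) and 0.91 (adjusted p = 0.00017) in edgeR. Siglec1, Cd300a, Pirb and Cd47 were lower there, by log2 fold changes of -0.63, -0.62, -0.39 and -0.31. In 5 of the 9 members, Siglec1, Sirpa, Cd47, Cd300lf and Cd200r1, both deficient animals lay on the same side of both controls in each set, while 27.3% of all tested genes did so. No member was called for a difference of the genotype effect between the sets, where 0.0411% of all genes were called and 1 member, Siglece, had an unadjusted p under 0.05 in edgeR.

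A further list held other inhibitory receptors of myeloid cells and their partners, not all of which carry an ITIM. Of its 14 tested genes, 3 were lower, 1 was higher and 10 were not called, where 13.9% of all tested genes were called. Klra2, an inhibitory Ly49 family receptor, stood at 80.8 ± 43.5 CPM in deficient animals and 141 ± 62.4 CPM in controls (SD, n = 4 each; log2 fold change -0.85, SE 0.13, edgeR adjusted p = 0.00584). Clec12a, an ITIM lectin that senses uric acid crystals and dead cells, stood at 165 ± 74.6 CPM in deficient animals and 286 ± 53.5 CPM in controls (log2 fold change -0.88, SE 0.16, edgeR adjusted p = 0.00877). Pilrb2, an activating partner of PILRα, was lower by a log2 fold change of -0.54 (edgeR adjusted p = 0.0248). Havcr2, which encodes TIM-3, was higher by 0.33 (edgeR adjusted p = 0.0434).

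Downstream of the receptors, 1 of 16 tested ITIM signalling enzymes and adaptors was called, against 13.9% of all tested genes. Those not called include Ptpn6, which encodes SHP-1 (log2 fold change -0.15), and Inpp5d, which encodes SHIP-1 (-0.12). Csk, the kinase that restrains Src family kinases, was lower, at 366 ± 40.3 CPM in deficient animals and 428 ± 48.9 CPM in controls (log2 fold change -0.23, SE 0.06, edgeR adjusted p = 0.0287). Of the 4 genes for activating adaptors and their kinase, Fcer1g was lower, at 1174 ± 128 CPM in deficient animals and 1412 ± 151 CPM in controls (log2 fold change -0.26, edgeR adjusted p = 0.0229). Tyrobp, which encodes DAP12, and Syk had log2 fold changes of -0.11 and -0.09 and were not called.

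The ligand list held protein ligands of these and related receptors and some partner proteins, so its counts are not confined to ligands of the members. Among its 16 tested genes, 5 were higher, 6 lower and 5 not called, where 6.59% of all tested genes were higher and 7.35% lower. S100a8, whose partner protein S100A9 is a ligand of CD33 in humans, stood at 92.1 ± 48.2 CPM in deficient animals and 11.2 ± 7.52 CPM in controls (SD, n = 4 each; log2 fold change 3.10, SE 0.26, edgeR adjusted p = 0.000969). S100a9 was higher by a log2 fold change of 2.72 (edgeR adjusted p = 0.00227), and both genes are also among the neutrophil markers above. Cd24a, a Siglec-G ligand, was higher as well, at 102 ± 49.7 CPM in deficient animals and 41.3 ± 22.0 CPM in controls (log2 fold change 1.33, SE 0.14, edgeR adjusted p = 0.00173). Selplg, which encodes the mucin PSGL-1, was lower by a log2 fold change of -0.46 (edgeR adjusted p = 0.00381). Fn1, which encodes fibronectin, a ligand of gp49B, was higher (log2 fold change 0.97). Il4ra, a receptor gene on the same list, was higher too (log2 fold change 0.42, edgeR adjusted p = 0.0154). Apoe, also on the ligand list, was lower (log2 fold change -0.73, edgeR adjusted p = 0.0308). The PIR-B ligand genes B2m, H2-K1 and H2-D1 were lower (-0.40, -0.29 and -0.24).

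Genes that make, attach or remove sialic acid, the sugar that Siglecs bind, gave 5 lower, none higher and 18 not called among 23 tested, where 7.35% of all tested genes were lower and 6.59% higher. St3gal5, which makes the ganglioside GM3, stood at 77.3 ± 46.3 CPM in deficient animals and 167 ± 60.9 CPM in controls (SD, n = 4 each; log2 fold change -1.19, SE 0.26, edgeR adjusted p = 0.0178). St3gal3 was lower by a log2 fold change of -0.43 (edgeR adjusted p = 0.0211) and the sialic acid esterase gene Siae by -0.50 (edgeR adjusted p = 0.035). St3gal6, at 1.79 ± 0.665 CPM in deficient animals and 3.44 ± 1.33 CPM in controls, was lower by -0.93 (edgeR adjusted p = 0.0453). St8sia6, under 5 CPM in every animal, was lower too (log2 fold change -1.14, edgeR adjusted p = 0.0474). The enzymes of sialic acid synthesis Gne, Nans and Cmas were not called, with log2 fold changes of -0.12, 0.10 and 0.07.

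**Figure D4:**
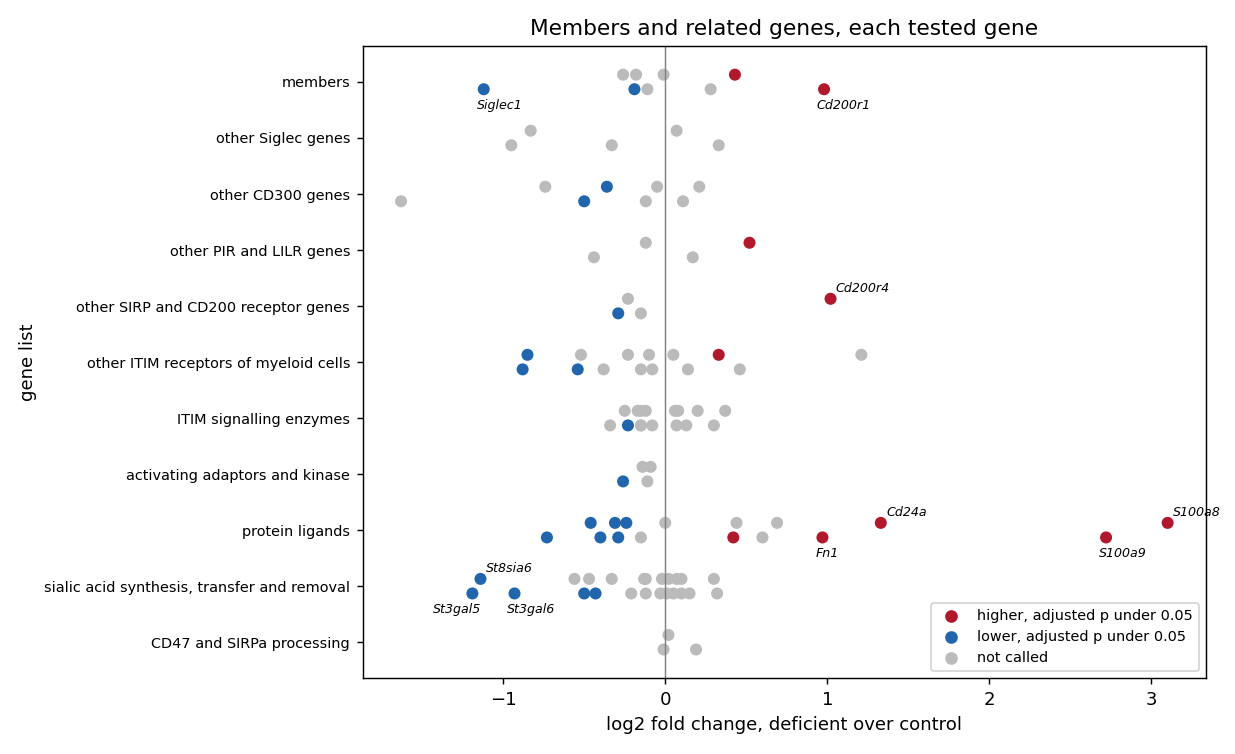
Log2 fold change of deficient over control on the horizontal axis for every tested gene of each list, with a point per gene. Red points are called higher, blue points called lower (edgeR adjusted p under 0.05) and grey points not called. Calls in the sialic acid list are all lower, and the points farthest right are S100a8 and S100a9 in the protein ligand list.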

How the data were processed

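Libraries were made from polyadenylated RNA (500 ng per animal) and read as single reads. The authors deposited raw counts per gene for each of the 8 animals, which are the values used here, and 8 columns of other values were not used. GRCm38 and the tools HTSeq 0.12.4, STAR 2.7.3a, cutadapt and DESeq2 1.26.0 are named in the submitters' processing notes, without their roles, and the strand setting is not given in the sources used here, so overlapping genes on opposite strands may mix. Each of the 15337 rows (15336 genes and a cre transgene) reaches at least 6 counts in some animal. Positions, exon lengths and names came from GENCODE M21, which holds 15318 of the identifiers.

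The counts were tested with edgeR 4.0.16 in R 4.3.3 (filterByExpr, minimum count 10, minimum total 15; TMM scaling, quasi-likelihood F-test, two-sided), which kept 12178 genes and removed 3158. TMM-scaled CPM values are given per animal. Exact permutation tests were run on single values and can go no lower than p = 0.0286 over 8 animals or 0.0556 when animals are exchanged within label sets. Sequence windows of 75 bases were compared among all annotated transcripts. Alternatives were DESeq2 1.42.0, limma 3.58.1 voom, other scalings and filters, each label set alone, no label set, and leaving out each animal. Simulated data of the same size had 50 genes changed at each of 1.25-fold, 1.5-fold, 2-fold and 4-fold. On them the fit with the label set recovered 84% of genes changed 2-fold, with 6 false calls among 141. The fit without it recovered 58% with 0 false calls. The members, the gene lists and the use of the label set were chosen with earlier results of these data known. Named genes are all members, Commd10 and Lyz2, and up to 4 called genes per list by smallest p, or the 2 with the smallest p where none was called. Other genes, such as the partners of a member and the enzymes that were not called, were added after their values were seen.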

Additional observations from a re-analysis of the deposited data

Results flagged for a closer look

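Siglece was singled out because its genotype difference was not alike in the label sets. Its log2 fold change of deficient over control was 0.68 in the higher-numbered set and -0.11 in the lower-numbered set, a difference of 0.80 on the log2 scale (edgeR interaction test, unadjusted p = 0.000101, adjusted p = 0.154 over all genes). The 2 deficient animals of the higher-numbered set had 73.5 and 67.3 CPM, and the 2 controls of that set had 42.2 and 45.4 CPM. The difference did not pass the adjustment over 12178 genes.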

How the results depend on the processing

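No paired analysis was possible because deficient and control mice share no replicate number. With the label set in the model, 1697 genes and 4 members were called. Dropping the label set left 0 genes and 0 members. The lower-numbered set alone gave 46 genes and 0 members, and the higher-numbered set alone gave 646 genes and 3 members (Siglece, Siglec1 and Cd200r1). Leaving out 1 animal gave 697 to 1685 genes and 2 to 4 members, with 697 genes and 2 members without deficient replicate 12, 739 genes without control replicate 11, 973 without control replicate 2 and 1000 without deficient replicate 13. Upper-quartile scaling called 641 genes higher and 1035 lower, against 802 and 895 with TMM, and 2 members in each direction as before. Without the label set, DESeq2 called 159 genes and 1 member, where edgeR and limma voom called 0. The counts of members called between label sets (4 to 6 when 1 animal was left out) and for the interaction (0 throughout) stayed within 1.5 times the reported counts. Signs changed where values lay near 0. Pirb stood at -0.01, and at 0 without the label set, at 0.10 in the lower-numbered set alone and at 0.01 to 0.05 without deficient replicate 6, 12 or 13 or control replicate 3 or 11 (0.04, 0.01, 0.02, 0.02 and 0.05). Cd33 ranged from -0.21 to 0.01 when 1 animal was left out, at 0.01 without control replicate 3 (Pirb from -0.11 to 0.05), and Siglece at -0.11 in the lower-numbered set alone. In the lower-numbered set alone Siglec1 (adjusted p = 0.0677) and Cd200r1 (adjusted p = 0.0549) were not called, Cd300lf (0.154 in the higher-numbered and 0.0835 in the lower-numbered set) and Cd47 (0.201 and 0.354) were called in neither, and beyond the smaller number of animals the cause was not tested. With 4 animals per group and label sets this far apart, the fit recovered 16% of simulated 1.25-fold changes. The simulation gave 141 calls against 1697 in the data, and the share recovered can depend on that number. Differences as small as those of Cd47 or Sirpa were not simulated, so calls at that size remain uncertain.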
